A study of Homo sapiens with 40 samples.

Results

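Single cells of the human breast cancer line T47D were grouped by the reads their RNA gave relative to an equal amount of synthetic RNA added to each lysate. The ERCC spike-ins are a mixture of synthetic RNAs that carry no human sequence, and the same volume of the same dilution went into every well. A cell with more RNA of its own gives more reads on human genes for each read on a spike-in. Loss of RNA from a damaged cell or poor capture lowers the same ratio, and these cannot be told apart from a lower RNA content here, so RNA-rich and RNA-poor are names for the ratio. For every cell the reads on genes were divided by the reads on ERCC spike-ins, and within each protocol the 5 cells with the highest ratio (RNA-rich) were set against the 5 with the lowest (RNA-poor), with the middle cell left out. This gave 30 cells, 10 in each of 3 protocols, of the 33 that passed the quality thresholds and of 40 sequenced.

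All cells were at passage 10, with no treatment described. They were sorted as living singlets positive for EpCAM and CD49f and negative for CD45 and CD31, and were spread over 3 chemistries for reading their RNA. Whether the protocols shared 1 culture and 1 sort, or used 1 plate each, is not stated in the sources used here. G&T separates mRNA from DNA on beads before reverse transcription, Takara is the SMART-Seq HT kit, which joins reverse transcription and amplification in 1 tube, and NEB is the NEBNext Single Cell/Low Input kit. All 3 read whole polyadenylated transcripts and use no molecular identifiers. Each protocol had 1 sequencing run, so the cells of a protocol are neither replicates of it nor of a condition. Since the groups were chosen by a measured value, no test was made between them. Values are given for each cell, and a gap is described by its size, by whether the groups overlap and by whether it had the same direction in the other protocols.

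A growing cell adds RNA as it enlarges, and a cell about to divide holds more messenger RNA than one that has just been born. Progress through the cycle is marked by genes switched on in turn: enzymes of DNA replication in S phase, then the kinases, cyclins and spindle proteins of G2 and mitosis. Bulk components such as ribosomal proteins and the subunits of the respiratory chain are made throughout, and their share of all mRNA can move against their amount per cell.

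The ratio was 58.5 to 72.2 gene reads per ERCC read in the RNA-rich G&T cells and 35.4 to 51.3 in the RNA-poor ones. It was 104 to 185 against 74.3 to 89.4 in Takara, and 8.98 to 16.7 against 4.30 to 7.04 in NEB. The group means stood 1.57-fold, 1.72-fold and 2.04-fold apart, given here and from now on with G&T first, Takara next and NEB last. The middle cells had ratios of 54.6, 101 and 7.42. At the edge of the choice, the Takara cell B1 was taken as RNA-rich at 104 (exact 95% interval for counting error 102 to 107). The middle cell A1 was left out at 101 (99.2 to 104), and these intervals overlapped. The levels differ between protocols by chemistry and run, and only the order within a protocol was used.

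**Figure D1:**
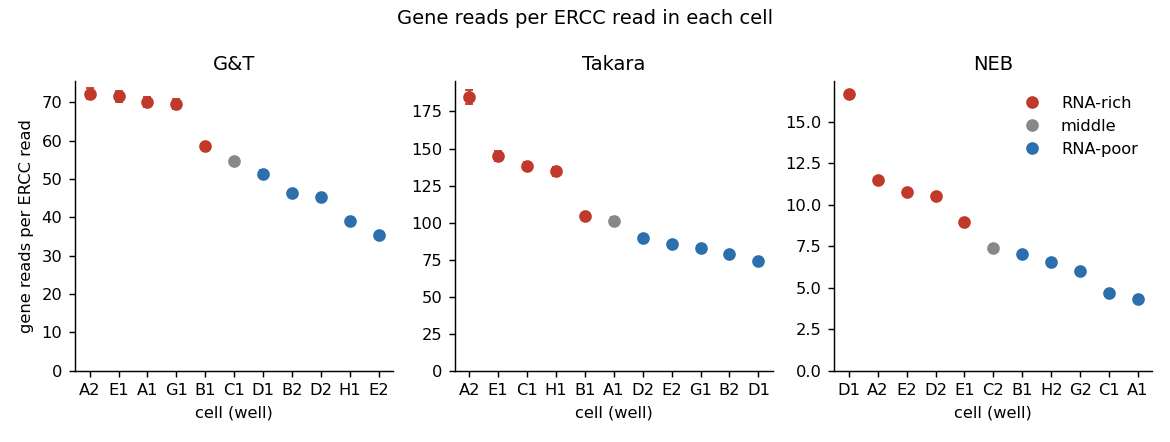
Gene reads per ERCC read (y axis, linear from 0) for each of the 11 kept cells of a protocol, ranked from highest to lowest, with exact 95% intervals for counting error that are mostly smaller than the points. RNA-rich cells are red, RNA-poor cells blue and the middle cell grey; the ratio falls from 72.2 to 35.4 (G&T), from 185 to 74.3 (Takara) and from 16.7 to 4.30 (NEB).

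Reads on genes were 745836 to 1005282 per RNA-rich cell and 658154 to 1166633 per RNA-poor cell in G&T, 969076 to 1287911 and 818512 to 1263792 in Takara, and 658323 to 963816 and 624772 to 704475 in NEB, overlapping in every protocol. More genes had at least 1 read in the RNA-rich Takara cells, 11479 to 11855 against 10624 to 10983, and these ranges stayed apart when every cell was thinned to 1 depth. In G&T (11102 to 12611 against 9541 to 12794) and NEB (4908 to 6719 against 4416 to 5879) the groups overlapped. As a check of the line, 27 of 29 luminal markers had reads in each protocol, with TFAP2B and XBP1 listed at 0. Whether these counts of 0 reflect absence of the transcripts was not tested. CD45 (PTPRC) was at 0 in the compared Takara and NEB cells, as were CD14, CD68, LYZ and CDH5 in all compared cells. In G&T 4 of 12 immune markers had reads, PTPRC among them, and 5 of 8 endothelial markers, among them CD31 (PECAM1). Immune markers summed to at most 27.0, 23.2 and 54.7 CPM in a compared G&T, Takara or NEB cell. Endothelial markers summed to at most 57.7, 125 and 1.52 CPM. No immune or endothelial marker passed the minimum level used below.

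Gene levels were compared as CPM, the reads on a gene scaled to a fixed total of reads on genes, which shows a gene's share of the cell's mRNA reads. The gap of a gene is the log2 ratio of the mean CPM of RNA-rich over RNA-poor cells after adding 1 CPM to both, so that it understates the difference of low genes. Of 60279 listed genes, 5271 had group means averaging at least 10 CPM in every protocol. Of these, 866 (16.4%) were higher in RNA-rich cells in all 3 protocols and 726 (13.8%) were lower. By at least 1.5-fold in each protocol, 117 (2.22%) were higher and 40 (0.759%) were lower. With DESeq2's size factors in place of CPM these were 101 and 62. None of the 5271 separated the groups without overlap in all 3 protocols, and 1 did so in at least 2, so every gap described here has cells that cross it in some protocol. A gene could pass the minimum through 1 group alone: 286 passing genes had a group of 5 cells with no read in some protocol, among them 20 of the 117, 4 of the 40, and 4 and 1 of the 12 leading genes on either side. Single cells also weigh heavily: of 50 genes named here, the smallest gap of 38 moved by over 1.5 times when 1 cell was left out. The median gap over all genes was 0.15, 0.00 and -0.10 in G&T, Takara and NEB. At the edge of the 1.5-fold list, SPAG5 was just inside with gaps of 0.59, 1.23 and 5.49 in G&T, Takara and NEB, and KIF11 just outside with 0.58, 2.43 and 3.00. On the lower side ANGEL2 was just inside with -0.60, -1.08 and -2.05, and RPS27 just outside with -1.63, -0.58 and -0.66.

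The 12 genes with the largest gaps toward RNA-rich cells, ranked by the smallest of their 3 gaps, were FAM83D, KIF14, ENSG00000187951, ZNF92, KNSTRN, CDC25C, UBE2C, AURKB, MZT1, SAT1, CDK1 and TACC3. Of these, 9 act in mitosis. CDK1 is the kinase that starts it, CDC25C the phosphatase that removes the inhibitory phosphates from CDK1, and AURKB the kinase of the chromosomal passenger complex. KIF14 is a motor protein of the dividing cell's midbody, FAM83D, KNSTRN and TACC3 bind the spindle, MZT1 is a small subunit of the complexes that nucleate microtubules, and UBE2C passes ubiquitin to the anaphase-promoting complex, which ends mitosis. The others were SAT1, which acetylates polyamines, ZNF92, a zinc finger protein, and ENSG00000187951, a long noncoding RNA with no symbol in GENCODE 44 (chromosome 15, 30658717 to 30772993, GRCh38).

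CDK1 (ENSG00000170312; chromosome 10, 60778331 to 60794852) was at 1379, 1499, 964, 1094 and 18.9 CPM in the RNA-rich G&T cells and at 526, 1361, 37.7, 1.04 and 55.4 CPM in the RNA-poor ones. Thus 4 RNA-rich cells and 1 RNA-poor cell stood at 964 CPM or above, and the groups overlapped at both ends. In Takara CDK1 was at 1595, 1326, 1273, 17.0 and 215 CPM against 51.3, 12.6, 9.50, 40.6 and 16.0 CPM. In NEB it was at 1067, 0, 557, 91.1 and 3246 CPM, and 1 read in 1 cell (1.47 CPM) was all that the 5 RNA-poor cells held. The gaps were 1.32, 5.04 and 9.58, and the NEB ratio of 3365 rests on that 1 read, with an exact 95% counting interval of 588 to 129442.

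UBE2C (ENSG00000175063; chromosome 20, 45812576 to 45816957) had a mean of 844 ± 504 CPM (SD, n = 5 cells) in RNA-rich and 321 ± 468 CPM in RNA-poor G&T cells. In Takara it was 1643 ± 1407 against 32.6 ± 27.5 CPM, and in NEB 677 ± 850 against 1.17 ± 1.20 CPM. The RNA-rich cells split within themselves: in Takara 3 cells held 2187 to 2979 CPM of UBE2C and the other 2 held 50.1 and 223 CPM, and in NEB 2 cells held 1425 and 1770 CPM and the rest at most 115 CPM. CDC25C (ENSG00000158402; chromosome 5, 138285269 to 138338355) showed the same split at a lower level, with 36.3 and 167 CPM in 2 NEB cells and 0 in the other RNA-rich ones. The RNA-poor G&T cell B2, with 1150 CPM of UBE2C and 1361 CPM of CDK1, held more of both genes than any other RNA-poor cell.

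KIF14 (chromosome 1, 200551497 to 200620751) had no read in the RNA-poor Takara or NEB cells and passed the minimum there through the RNA-rich cells alone. Against a floor of 3 reads over the group it was at least 70.4-fold higher in RNA-rich Takara cells and at least 159-fold higher in RNA-rich NEB cells, and in G&T its means were 136 ± 126 and 41.2 ± 77.0 CPM. By the same floor, AURKB was at least 23.5-fold, TACC3 at least 42.3-fold and ZNF92 at least 59.1-fold higher in NEB. FAM83D, first by its smallest gap, had gaps of 2.05, 4.47 and 6.40, and in NEB its level came almost entirely from 1 cell at 514 CPM.

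SAT1 (chromosome X, 23783173 to 23786210), which is no mitotic gene, was spread over the cells differently. In NEB all 5 RNA-rich cells expressed it, at 574 to 1831 CPM against 112 to 1012 CPM. In G&T its mean of 638 ± 818 CPM in RNA-rich cells rested on cells at 748 and 2022 CPM, and the other 3 (118 to 180 CPM) lay near the RNA-poor range of 57.4 to 171 CPM. ZNF92 was higher in 4 of 5 RNA-rich G&T cells (21.5 to 45.7 CPM) than in any RNA-poor one (at most 16.3 CPM).

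**Figure D2:**
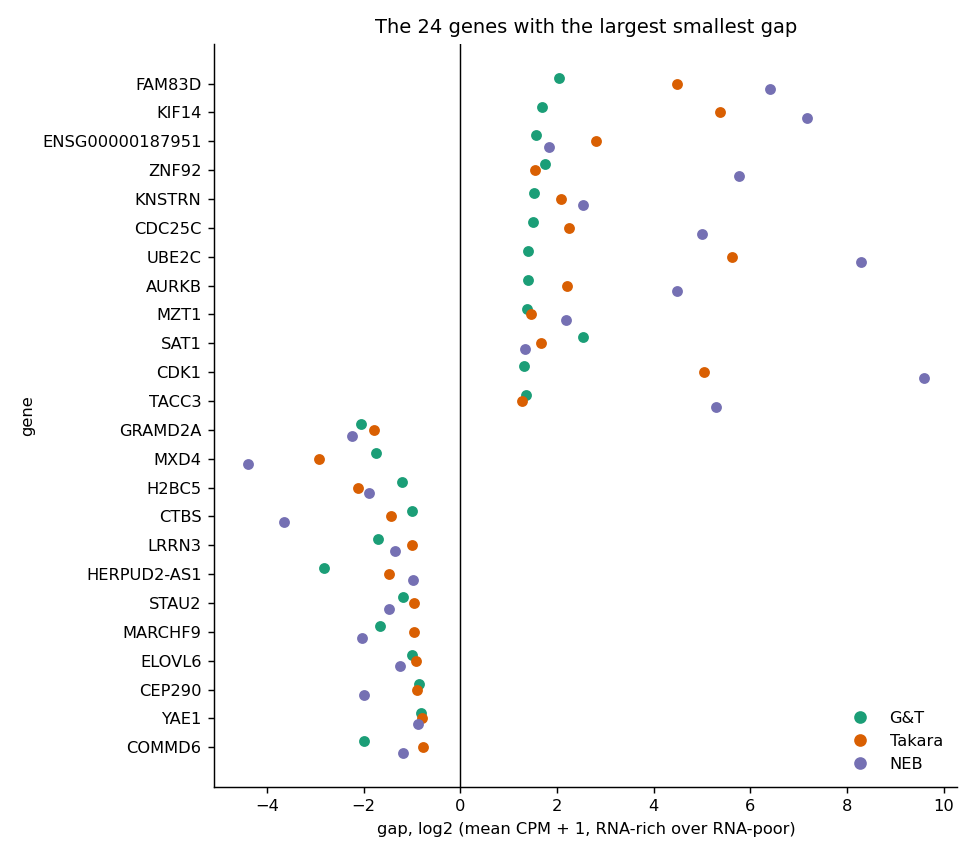
Gap (x axis, log2 of mean CPM plus 1 in RNA-rich over RNA-poor cells) of the 12 genes higher and the 12 genes lower in all 3 protocols with the largest smallest gap, with 1 point per protocol. The higher genes reach 9.58 (CDK1 in NEB), and the lower genes reach -4.39 (MXD4 in NEB); the order was set by the smallest of the 3 gaps.

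**Figure D3:**
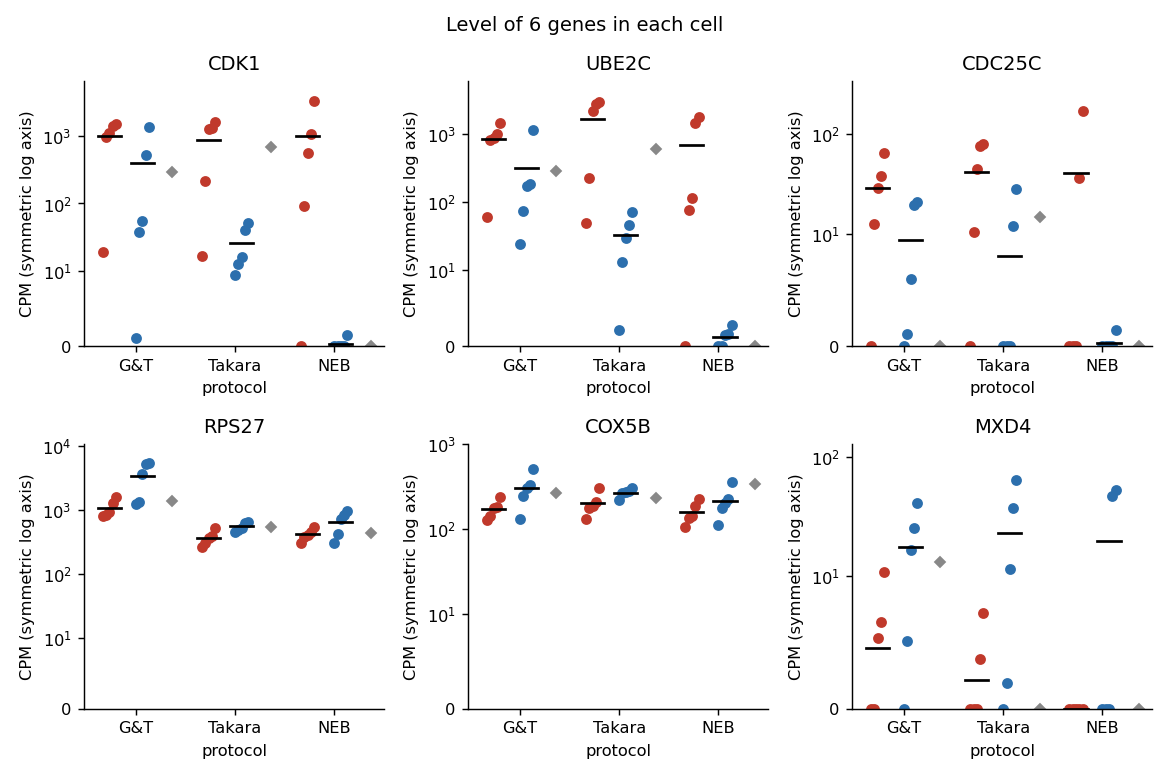
CPM (y axis, symmetric log scale, linear below 10 CPM) of 6 genes in each RNA-rich (red), RNA-poor (blue) and middle (grey) cell, with a line at the mean of each group of 5. CDK1, UBE2C and CDC25C split the RNA-rich cells into a high and a low set, while RPS27 and COX5B shift by small steps and MXD4 is at 0 in all 5 RNA-rich NEB cells.

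The G2/M genes as a list moved the same way. Of 54 genes of this list, which Seurat uses to score the cycle, 48 passed the minimum. In all 3 protocols 37 (77.1%) were higher in RNA-rich cells, beside 16.4% of all genes tested, and none was lower. By 1.5-fold, 24 were higher. Their median gap was 0.84, 1.54 and 1.24, beside all-gene medians of 0.15, 0.00 and -0.10. Single cells moved these medians. With 1 cell left out, the G&T median ran from 0.58 to 1.91, the latter without the RNA-poor cell B2. In Takara the median ran from 1.29 to 2.55, the latter without the RNA-poor cell B2. In NEB it was 0.76 without the RNA-rich cell E1 and 1.91 without the RNA-poor cell C1. Within a protocol, 46, 48 and 37 of the 48 were higher. Since the cells were chosen on total RNA and the levels are from the same libraries, these counts are a description.

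Summed over the list, G2/M genes took 25953, 21886, 14936, 14111 and 5956 CPM of the RNA-rich G&T cells and 8536, 25801, 3520, 7055 and 4429 CPM of the RNA-poor ones. In Takara the sums were 29739, 22447, 25936, 7060 and 5940 CPM against 9187, 1972, 2264, 15437 and 2911 CPM. In NEB they were 36574, 5899, 9830, 2139 and 49735 CPM against 2763, 8351, 17286, 17537 and 11328 CPM. The highest sums, clear of the rest, belonged to 4 RNA-rich cells and the RNA-poor cell B2 in G&T, to 3 RNA-rich cells in Takara and to 2 RNA-rich cells in NEB, and the groups overlapped in every protocol. In NEB the list therefore rested on the cells D1 and E1: without both, its median gap in NEB was -0.84, 14 of 42 passing members were higher in all 3 protocols, and the 1.5-fold list over all genes held 68 genes in place of 117. The direction in NEB is thus that of 2 cells.

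Sets of mitotic genes by role were added after values were seen. Higher in all 3 protocols were 10 of 13 cyclins and kinases of mitotic entry, 9 of 10 mitotic kinesins and 20 of 25 centromere and kinetochore genes. So were 10 of 13 condensin and chromosome structure genes and 8 of 9 cytokinesis genes. None was lower in all 3, and over all genes tested 16.4% were higher. In NEB the sums of these sets were also highest in D1 and E1. For the kinesins these cells held 5511 and 7888 CPM, against 0 to 1214 CPM in the other RNA-rich cells and 0 to 2082 CPM in the RNA-poor ones. Of 7 spindle checkpoint genes, 3 were higher, with a median gap of -0.51 in NEB. The anaphase-promoting complex was the least one-sided, with 5 of 16 genes higher and 1 lower.

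Promoters of these genes are known to carry a cell cycle element, the CHR (TTTGAA), and CCAAT boxes, where the factor NF-Y binds. Promoters from RefSeq (GRCh38.p14, 250 bases before to 50 after the start) were searched on both strands. The CHR letters lay in 24 of the 31 G2/M genes higher in all 3 protocols that had a promoter in the table (77.4%), beside 10.6% of 4350 tested genes and 15.4% of all 27305 promoters. CCAAT lay in 64.5% of the 31 and in 38.6% of tested genes, and both motifs in 58.1% and 4.83%. Of all passing G2/M genes, 40 had a promoter in the table. CHR letters lay in 28 of these (70%), CCAAT in 67.5% and both in 55%. The shares were thus near those of the whole list and do not mark its members that were higher. Outside the G2/M list, the genes higher by at least 1.5-fold held the CHR letters in 29 of 80 promoters (36.2%). These 80 still include mitotic genes that the list lacks, such as KIF14 and MZT1, so the share is not one of genes outside mitosis. The genes lower by at least 1.5-fold held the letters in 5 of 34 (14.7%) and cytosolic ribosomal proteins in 6 of 68 (8.82%). Of the 12 leading higher genes 9 had a promoter in the table, and 4 of these (44.4%) held the CHR letters, each with CCAAT: CDK1, KIF14, MZT1 and SAT1. KNSTRN, CDC25C, AURKB, TACC3 and ZNF92 held none. Of 11 leading lower genes 3 (27.3%) held them, H2BC5, ELOVL6 and CEP290. The promoters of 3 mitotic genes with both motifs, and from the lower side of H2BC5 with both and MXD4 with CCAAT alone, are shown 5′ to 3′ on the gene's own strand, with matches to either motif on either strand in capitals. The motifs can share an end base, and each was counted on its own. CDK1 lies at chr10:60778081-60778380 (plus strand), KIF14 at chr1:200620702-200621001 (minus), MZT1 at chr13:72727580-72727879 (minus), H2BC5 at chr6:26157871-26158170 (plus) and MXD4 at chr4:2262060-2262359 (minus).
CDK1: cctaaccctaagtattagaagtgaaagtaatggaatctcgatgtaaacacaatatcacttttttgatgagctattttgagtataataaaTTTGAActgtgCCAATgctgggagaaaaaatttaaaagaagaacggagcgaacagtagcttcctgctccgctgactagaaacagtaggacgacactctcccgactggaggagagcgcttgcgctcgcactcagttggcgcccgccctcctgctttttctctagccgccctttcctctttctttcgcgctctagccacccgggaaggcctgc
KIF14: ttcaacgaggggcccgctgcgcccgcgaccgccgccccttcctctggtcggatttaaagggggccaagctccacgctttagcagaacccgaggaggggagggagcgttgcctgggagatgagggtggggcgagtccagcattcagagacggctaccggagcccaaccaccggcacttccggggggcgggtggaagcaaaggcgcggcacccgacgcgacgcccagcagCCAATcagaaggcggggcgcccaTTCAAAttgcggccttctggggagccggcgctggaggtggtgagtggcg
MZT1: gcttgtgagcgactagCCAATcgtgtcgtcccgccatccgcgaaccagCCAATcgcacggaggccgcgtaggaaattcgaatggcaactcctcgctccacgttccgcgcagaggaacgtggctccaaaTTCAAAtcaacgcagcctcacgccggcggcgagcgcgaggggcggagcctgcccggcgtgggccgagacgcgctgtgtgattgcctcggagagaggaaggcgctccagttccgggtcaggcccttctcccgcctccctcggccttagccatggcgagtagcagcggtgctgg
H2BC5: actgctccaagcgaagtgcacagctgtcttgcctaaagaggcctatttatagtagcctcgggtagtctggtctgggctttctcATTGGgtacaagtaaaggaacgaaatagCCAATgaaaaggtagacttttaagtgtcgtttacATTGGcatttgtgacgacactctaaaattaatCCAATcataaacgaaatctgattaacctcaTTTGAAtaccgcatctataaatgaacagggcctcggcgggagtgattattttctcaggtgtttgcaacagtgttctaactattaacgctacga
MXD4: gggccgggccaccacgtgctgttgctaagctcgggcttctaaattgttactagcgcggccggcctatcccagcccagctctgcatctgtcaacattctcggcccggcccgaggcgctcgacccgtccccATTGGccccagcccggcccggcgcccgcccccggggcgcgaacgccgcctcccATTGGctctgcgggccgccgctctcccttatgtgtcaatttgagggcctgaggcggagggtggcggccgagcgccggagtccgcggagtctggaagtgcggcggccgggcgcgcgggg

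A match in these windows is a description of letters and not of a factor bound there. In CDK1 the CHR letters begin 161 bases and the CCAAT letters 150 bases before the start, in KIF14 they begin at base 2 after it and 22 bases before it, and MZT1 holds 1 CHR match and 2 CCAAT matches. H2BC5 holds 1 CHR match and 4 CCAAT matches, and MXD4 holds 2 CCAAT matches and no CHR match.

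Genes of S phase were less uniform. Of 43 listed, 34 passed. In all 3 protocols 13 (38.2%) were higher in RNA-rich cells, beside 16.4% of all genes tested, and 1 was lower. The median gaps were 0.00, 0.89 and 1.15. These rested on single cells. The count of 13 was 20 without the RNA-poor G&T cell D1 and 9 without the RNA-rich G&T cell A2. The G&T median ran from -0.29 without the RNA-rich cell G1 to 0.50 without D1. The Takara median was 0.54 without the RNA-rich cell B1, and the NEB median 0.28 without the RNA-rich cell E2 and 2.40 without the RNA-poor cell A1. With TMM scaling the G&T median was -0.17. RRM2 and RRM1, the subunits of the enzyme that makes deoxynucleotides, had smallest gaps of 1.20 and 0.63. FEN1, the flap nuclease of Okazaki fragments, had 0.43. In Takara RRM2 was at 564 ± 393 CPM in RNA-rich and 94.8 ± 119 CPM in RNA-poor cells (n = 5 each), and the highest S phase sum of that protocol, 12025 CPM, belonged to the middle cell. The S phase sums overlapped in every protocol, at 1562 to 6891 against 1357 to 8797 CPM in G&T. CCNA2, the cyclin of S and G2 phase, had a smallest gap of 1.02, and 2 of the 8 passing G1/S genes were higher in all 3.

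Cell cycle stages called from gene pairs by cyclone placed 9 of the 15 RNA-rich cells in G2M, 4 in G1 and 2 in S, and 1 of the 15 RNA-poor cells in G2M, 10 in G1 and 4 in S. The 9 were 4 G&T, 3 Takara and 2 NEB cells, and the RNA-poor one was G&T B2. The 10 RNA-poor cells called G1 were 1 G&T, 5 Takara and 4 NEB cells. Some calls were not clear-cut. Takara A2, E1 and C1 and NEB D1 had G2M scores of 1 but also G1 scores of 0.821, 0.527, 0.963 and 0.85. RNA-poor G&T H1 and NEB H2, called G1, had G2M scores of 0.693 and 0.685. RNA-rich Takara B1 and NEB E2, also called G1, had S phase sums of 8002 and 9797 CPM. These were the highest of the compared cells of their protocols. No Takara cell was called S, not even the middle cell A1 with 12025 CPM, and all had G1 scores of 0.527 or more. A call of G1 in Takara therefore does not mark G1 alone. The stages come from the same libraries as the lists and add no independent count.

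The other side of the comparison was led by bulk components. Of 78 cytosolic ribosomal protein genes that passed, 55 (70.5%) were lower in RNA-rich cells in all 3 protocols, beside 13.8% of all genes tested. None was higher, and the median gaps were -0.50, -0.29 and -0.37. None of the 55 reached 1.5-fold in every protocol, so the shift was broad and small. It covered 20 of 30 small subunit and 35 of 48 large subunit genes. The summed ribosomal protein level was 69651 to 106171 CPM in RNA-rich and 71883 to 162861 CPM in RNA-poor G&T cells, 37978 to 54728 against 50556 to 67784 in Takara, and 28713 to 36169 against 27909 to 49413 in NEB. In G&T 3 RNA-poor cells, at 140267 CPM and above, carried the gap, and the other 2 lay within the RNA-rich range.

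RPS27 (ENSG00000177954; chromosome 1, 153990762 to 153992155), a small subunit protein, was at 841, 818, 1279, 938 and 1577 CPM in RNA-rich and 1231, 1317, 3646, 5436 and 5264 CPM in RNA-poor G&T cells. In Takara it was at 304, 262, 369, 514 and 396 CPM against 637, 494, 457, 521 and 652 CPM, overlapping through 1 RNA-rich cell. In NEB its means were 415 ± 88.9 and 655 ± 284 CPM. RPS19, RPL13A and RPS29 had smallest gaps of -0.46, -0.46 and -0.43. Ribosomal protein genes have many processed pseudogenes, and reads that fit several places were not counted on genes. Those reads took 3.34% to 3.72% of reads in RNA-rich and 3.79% to 4.06% in RNA-poor Takara cells, without overlap. In G&T they took 3.44% to 4.64% against 3.75% to 5.08%, with overlap. In NEB the groups also overlapped, with the means the other way (2.87% against 2.78%). The part of these reads in the result was not tested.

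Nuclear genes of oxidative phosphorylation followed. Of 74 that passed, 31 (41.9%) were lower in all 3 protocols, beside 13.8% of all genes tested. None was higher, and the median gaps were -0.81, -0.17 and -0.14. Without the RNA-poor NEB cell B1 the count was 20 and the NEB median -0.00098, and with TMM scaling the NEB median was -0.010, so the lower level in NEB rests on that cell and on the scaling. By complex the count was 13 of 32 for complex I, 0 of 4 for complex II, 3 of 10 for complex III with cytochrome c, 7 of 11 for complex IV and 8 of 17 for ATP synthase. Complex II, succinate dehydrogenase, had a median gap of 0.51, 0.03 and -0.25. The summed level of the complex I genes was 6640 to 8054 CPM in RNA-rich and 8062 to 8983 CPM in RNA-poor Takara cells, the 1 list in which the groups did not overlap on this side, and the highest and lowest of these cells were almost equal. The whole set took 22595 to 25838 CPM of RNA-rich and 21770 to 55048 CPM of RNA-poor G&T cells, 24672 to 31769 and 28695 to 33818 CPM in Takara, and 20996 to 22848 and 20249 to 28004 CPM in NEB. In G&T the RNA-poor cells D2, H1 and E2, at 40386, 50890 and 55048 CPM, carried the gap, while D1 and B2 were at 24012 and 21770 CPM. H1 and E2 also had the fewest genes with reads of the kept G&T cells, 9541 and 10074.

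UQCR11, a small subunit of complex III, had the largest smallest gap of these genes (-0.69), with 0.06 in NEB without the RNA-poor cell A1. COX5B of complex IV (chromosome 2, 97646062 to 97648383) was at 240, 177, 182, 129 and 144 CPM in RNA-rich and 249, 132, 305, 337 and 509 CPM in RNA-poor G&T cells, so that 1 RNA-poor cell lay among the RNA-rich ones. NDUFB3 of complex I and UQCRH of complex III had smallest gaps of -0.38 and -0.27. For NDUFB3 the Takara means were 138 ± 39.6 and 209 ± 33.4 CPM.

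Messenger RNAs made from mitochondrial DNA were lower in RNA-rich cells in all 3 protocols for 9 of 13 genes (69.2%), beside 13.8% of all genes tested. They were higher for 1, and the median gaps were -0.30, -0.24 and -0.18. The G&T median was -0.13 without the RNA-rich cell A2, and the NEB median was -0.052 with TMM scaling. Their sum was 28539 to 96765 CPM in RNA-rich and 57660 to 88219 CPM in RNA-poor G&T cells, 60796 to 81890 and 78898 to 104945 CPM in Takara, and 75577 to 95608 and 83779 to 101358 CPM in NEB. MT-CO2, a catalytic subunit of cytochrome c oxidase, was at 9300 ± 1838 against 17084 ± 6033 CPM for G&T, 10472 ± 1611 against 12373 ± 1539 in Takara and 34794 ± 4694 against 39460 ± 7124 in NEB (mitochondrial genome, 7586 to 8269). MT-ATP8, MT-ND3 and MT-CO3 had smallest gaps of -0.30, -0.27 and -0.23. MT-ATP8 overlaps MT-ATP6 on the genome, and its count may hold reads of that gene.

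Transcript length moved with these gaps. Tested genes whose transcripts are under 1000 nucleotides long had median gaps of -0.43, -0.12 and -0.15, and 35.3% of the 448 were lower in all 3 protocols. Without the ribosomal and respiratory chain genes the share was 27.0% of 355. Among genes of 4000 nucleotides or more 10.1% were lower and 20.0% higher. Of the ribosomal protein genes 55.1% were under 1000 nucleotides, of the nuclear respiratory genes 55.4% and of the mitochondrial messengers 61.5%, but of the G2/M genes 6.25%. The part of length in the lower levels was not tested.

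**Figure D4:**
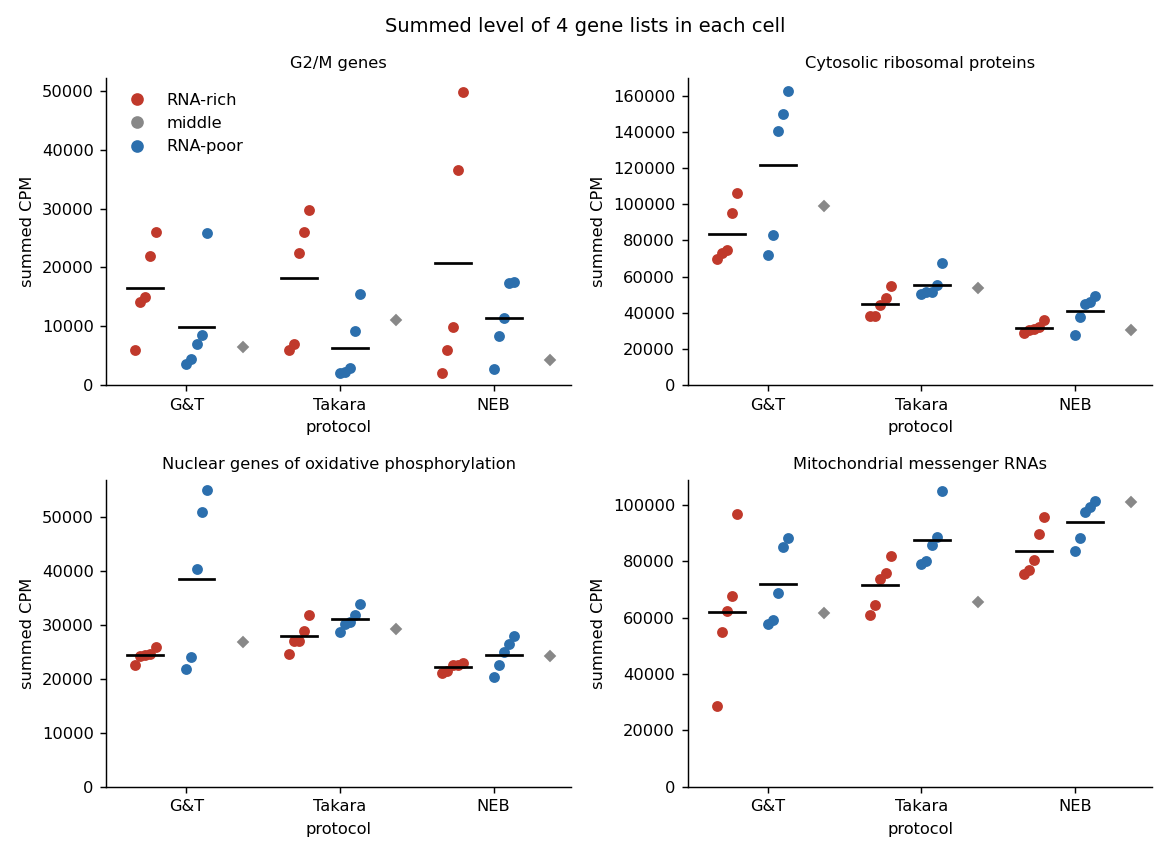
Summed CPM (y axis, linear from 0) of 4 gene lists in each RNA-rich (red), RNA-poor (blue) and middle (grey diamond) cell, with a line at the group mean. G2/M sums reach 49735 CPM in an RNA-rich NEB cell and 25801 CPM in an RNA-poor G&T cell, and the other 3 lists have lower means in RNA-rich cells of every protocol, with overlap in all 12 pairs of groups.

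The 12 genes with the largest gaps toward RNA-poor cells were GRAMD2A, MXD4, H2BC5, CTBS, LRRN3, HERPUD2-AS1, STAU2, MARCHF9, ELOVL6, CEP290, YAE1 and COMMD6. They share no list in the way the 12 higher genes do, and most were low. MXD4, which pairs with MAX and opposes MYC, was at 6.56, 5.36, 0, 0 and 10.9 CPM in RNA-rich and 25.5, 41.0, 5.14, 16.6 and 0 CPM in RNA-poor G&T cells. In Takara its means were 2.20 ± 3.26 and 23.2 ± 27.7 CPM. In NEB it passed the minimum through the RNA-poor cells alone: no RNA-rich cell had a read of MXD4 and 2 RNA-poor cells held 47.2 and 52.8 CPM, at least 25.9-fold lower in RNA-rich cells by the floor of 3 reads over the group.

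H2BC5, a histone H2B gene, had gaps of -1.20, -2.12 and -1.88, and the first came from 1 RNA-poor cell (H1) at 59.1 CPM, without which the gap in G&T was 0.40. LRRN3, a leucine-rich repeat membrane protein, was among the more abundant, at 43.0 ± 58.4 against 142 ± 84.3 CPM for G&T, 81.9 ± 93.2 against 165 ± 127 in Takara and 110 ± 142 against 282 ± 205 in NEB. Its cells ran from 0 to 324 CPM among RNA-rich and from 0 to 575 CPM among RNA-poor cells. STAU2, which binds double-stranded RNA, was at 20.3 to 53.7 CPM in RNA-rich and 37.5 to 141 CPM in RNA-poor G&T cells. ELOVL6, which elongates fatty acids, CEP290, a protein of the base of cilia, and COMMD6 had smallest gaps of -0.92, -0.85 and -0.77. CTBS in NEB rested on 3 reads in the RNA-rich cells, a ratio of 0.0375 with an exact 95% counting interval of 0.00709 to 0.107, and on 1 RNA-poor cell (B1) at 106 CPM, without which its gap was 0.37. MARCHF9 in NEB rested on 1 RNA-poor cell (A1) at 99.0 CPM, without which its gap was 2.35. GRAMD2A had gaps of -2.06, -1.79 and -2.23, HERPUD2-AS1, an antisense RNA that may share reads with its partner, -2.82, -1.48 and -0.98 (0.47 in NEB without cell A1), and YAE1 -0.81, -0.79 and -0.88.

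Luminal identity genes had no common direction. Of 21 that passed, 5 (23.8%) were lower in RNA-rich cells in all 3 protocols, beside 13.8% of all genes, and none was higher in all 3. Within a protocol 13, 5 and 4 of the 21 were higher, and the median gaps were 0.14, -0.17 and -0.10. The next 4 genes are those of the 5 with the largest smallest gaps. GATA3 (chromosome 10, 8045378 to 8075198), a transcription factor of luminal cells, was at 556 ± 181 against 974 ± 433 CPM for G&T, 552 ± 199 against 785 ± 417 in Takara and 529 ± 211 against 873 ± 367 in NEB. KRT8 and KRT18, the paired keratins of simple epithelium, had gaps of -0.25, -1.06 and -1.78 and of -0.43, -0.77 and -1.36. In NEB KRT8 was at 27.7 to 57.7 CPM in RNA-rich cells and 23.0 to 232 CPM in RNA-poor ones. TFF3, a secreted trefoil peptide, ranged from 115 to 12935 CPM within the RNA-poor G&T cells, wider than any gap between its means, and without the RNA-poor cell E2 its G&T gap was 0.10. The estrogen receptor ESR1 had gaps of 0.97, 0.57 and -0.48, EPCAM of 0.77, -0.03 and -1.50, and ITGA6, which encodes CD49f and lay under the minimum in Takara, of -0.18, -0.14 and -0.92.

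Markers of fibroblasts and basal cells summed to 17.4 to 148 CPM in RNA-rich and 5.19 to 16.5 CPM in RNA-poor G&T cells, without overlap. In Takara the sums were 28.1 to 116 and 39.6 to 172 CPM, and in NEB 0 to 92.2 and 23.6 to 194 CPM, with the means the other way. Of the 13 markers 2 (COL3A1 and LUM) were at 0 in G&T, as were 7 in Takara and 9 in NEB, and their part in the results was not tested.

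Growth machinery did not move as a block. Of 51 translation factors that passed, 7 (13.7%) were higher in all 3 protocols and 2 (3.92%) lower, beside 16.4% and 13.8% of all genes tested. EIF4E, which binds the cap of messenger RNA, was higher by the largest smallest gap (0.62). Its NEB cells did not overlap, at 405, 522, 398, 512 and 543 CPM against 147, 163, 266, 99.5 and 317 CPM. Over all 5271 genes, 39 (0.74%) were higher without overlap in NEB. In Takara the EIF4E means were 316 ± 56.4 and 205 ± 65.8 CPM. EIF2AK2, a kinase that senses double-stranded RNA, and EIF1 had smallest gaps of 0.45 and 0.26, and EIF3J -0.24 (0.03 without the RNA-poor NEB cell H2). Among 15 regulators of growth, 3 were lower (MXD4 and the Ragulator subunits LAMTOR4 and LAMTOR5, with smallest gaps of -0.39 and -0.12, the latter 0.15 without the RNA-poor G&T cell H1) and none was higher. Ribosome biogenesis gave 5 higher (11.6%) and 8 lower (18.6%) of 43, and mitochondrial ribosomal proteins 6 (8.82%) and 11 (16.2%) of 68.

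The other lists were split or small. In all 3 protocols, splicing factors were higher for 8 and lower for 6 of 57, RNA polymerase II and Mediator for 5 and 5 of 39, proteasome subunits for 5 and 2 of 39, and cytosolic chaperones for 5 and 1 of 24. Endoplasmic reticulum folding genes gave 2 and 2 of 20, cholesterol and fatty acid synthesis 4 and 2 of 18, estrogen receptor targets 5 and 0 of 18, actin cytoskeleton 1 and 5 of 25, and glycolysis 0 and 1 of 13. Cell cycle inhibitors gave 3 and 0 of 10, interferon response and antigen presentation 3 and 0 of 10, tubulins 1 and 1 of 9, nuclear long noncoding RNAs 0 and 1 of 12, p53 targets 1 and 1 of 7, replication-dependent histones 1 and 1 of 5, mitochondrial ribosomal RNAs 1 and 0 of 2, immediate early genes 1 and 0 of 1, and fibroblast and basal markers 1 and 0 of 2. Against shares of 16.4% and 13.8% over all genes tested, none of these was read as a result about its list.

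**Figure D5:**
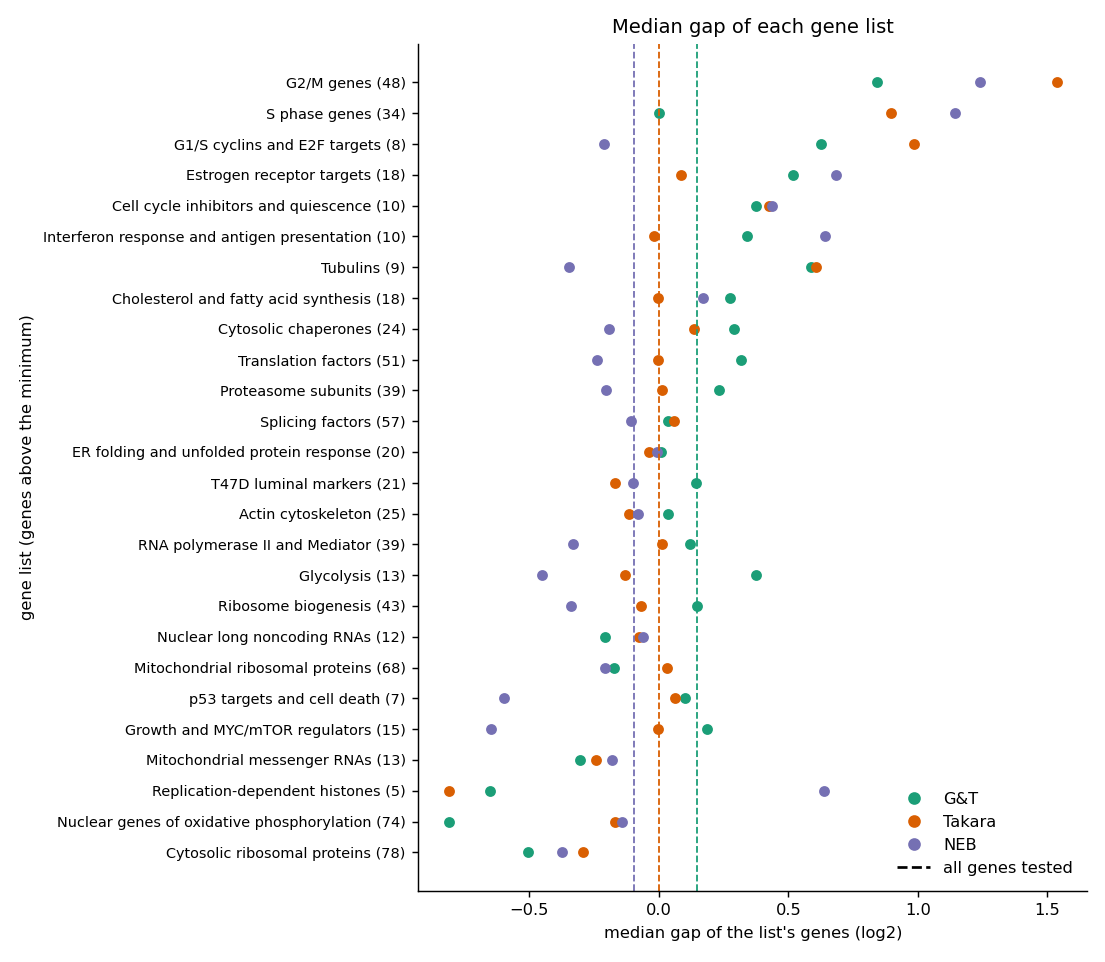
Median gap (x axis, log2) of the genes of each list that passed the minimum (numbers in brackets), with 1 point per protocol and dashed lines at the median of all genes tested, for lists with at least 3 such genes. G2/M genes lie to the right at 0.84 to 1.54, and cytosolic ribosomal proteins, nuclear respiratory genes and mitochondrial messengers lie below 0 in all 3 protocols.

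The direction was also read in a protocol whose gaps took no part in choosing the genes. That protocol did take part through the minimum level. A gene that passed it there through 1 group alone had its direction fixed. Genes at least 1.5-fold higher in both Takara and NEB numbered 329, and 71.1% of them were higher in G&T, beside 59.1% of all genes tested. For Takara the share was 64.8% of 378 beside 50.03%, and for NEB 61.8% of 251 beside 46.2%. All 31 and 25 G2/M genes so chosen were higher in G&T and Takara, and 28 of 33 in NEB. How many of these passed the minimum through 1 group alone was not counted. The NEB direction of this list is that of the cells D1 and E1, without which its median gap there was -0.84. Without the S and G2/M lists and the 7 sets by mitotic role the shares were 65.9%, 59.1% and 52.8%. For genes at least 1.5-fold lower in the other protocols, 49.4% of 178 were lower in G&T beside 40.9%, 60.9% of 243 in Takara beside 49.97% and 60.9% of 115 in NEB beside 53.8%. The 3 protocols share the cell line and the sorting markers but no cell.

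Read per ERCC read, the scale on which the cells were chosen, most genes were higher in RNA-rich cells: 85.7%, 94.8% and 79.8% of the 5271 in G&T, Takara and NEB, with 3441 higher and 15 lower in all 3. On this scale the median gap of the ribosomal proteins was 0.15, 0.46 and 0.66 and that of the mitochondrial messengers 0.34, 0.56 and 0.81, while that of the nuclear respiratory genes was -0.08, 0.59 and 0.87, beside 0.77, 0.78 and 0.94 over all genes. The lower ribosomal protein levels given above are lower shares of a cell's reads. The cells were chosen on the per-spike-in scale, so gaps above 0 on it were likely beforehand and show nothing further about these genes. On it 44 of the 78 ribosomal protein genes were higher in all 3 protocols, and none was lower. Of the 12 leading lower genes, HERPUD2-AS1 and YAE1 no longer lay below 0 in every protocol on this scale.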

How the data were processed

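Single T47D cells, sorted into plates, were sequenced with 3 protocols. After trimming (Trim Galore) and alignment (STAR, GRCh38), the authors deposited raw read counts for each gene and ERCC spike-in, as 1 table for each protocol and without normalization. The annotation release and strand setting are not given in the sources used here, and there are no molecular identifiers, so intervals and floors cover counting error only.

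Cells with at least 1000 genes, 600000 reads on genes and spike-ins, at most 30% mitochondrial and at most 25% ERCC reads were kept, which left libraries of 672328 to 1297218 reads. Groups were chosen by the ratio of gene reads to ERCC reads, that is, on the same libraries. Levels were CPM of reads on genes, a gap was the log2 ratio of group means plus 1 CPM, and genes needed an average of 10 CPM in every protocol. No test was made: the planned design gave none, since cells of 1 run are not replicates. Well names only identify a cell.

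Genes were named by a rule: the 12 higher and 12 lower genes with the largest smallest gap, up to 4 per list for the lists described in detail, and 5 luminal markers. The members and lists were chosen with earlier results of these data known, and the sets by mitotic role, ribosomal subunit and respiratory complex were added after values were seen. A gene named at the edge of a threshold is there for that place only. Positions, types and transcript lengths came from GENCODE 44 (5265 of the 5271 genes matched), promoters from RefSeq. The release may not be the one the authors used.

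TMM factors came from edgeR 4.0.16, size factors from DESeq2 1.42.0, stages from cyclone in scran 1.30.0 and cycle lists from Seurat 5.3.0, in R 4.3.3. The rest ran in Python 3.11.15 (pandas 2.3.3, numpy 2.4.6, matplotlib 3.10.9, scipy 1.17.1), with seed 11. The steps were tested on simulated data. Alternatives covered scaling, pseudocount, minimum level, group level, depth, group size, the ratio and the cells kept. Some members of the gene lists are counted but not reported here by name.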

Additional observations from a re-analysis of the deposited data

Results flagged for a closer look

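Groups of 5 cells were searched for a cell far from the other 4. The cutoff would flag about 1 in 20 groups of independent, normally spread values. The measures used share cells and reads, and the ratio also formed the groups, so that rate does not apply to them. Of the 90 groups examined, 8 held such a cell. Of these, 4 were RNA-rich G&T cell B1: its ratio of 58.5 lay below the other 4 (69.5 to 72.2), its 1005282 reads on genes and 17177 ERCC reads lay above theirs (at most 807065 and 11512), and its ribosome biogenesis genes summed to 7821 CPM beside at most 5407 CPM. RNA-poor G&T cell B2 had 25801 CPM of G2/M genes, the others at most 8536 CPM. RNA-rich NEB cell E2 had 9797 CPM of S phase genes, the others at most 3568 CPM. RNA-poor Takara cell D2 had 67784 CPM of cytosolic ribosomal proteins, the others at most 55363 CPM. RNA-poor Takara cell E2 had 172 CPM of fibroblast and basal markers, the others at most 64.8 CPM.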

How the results depend on the processing

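No paired analysis was possible because no test was made and well names only identify a cell. Each alternative was planned except the removal of NEB D1 and E1, which was chosen after seeing the data. Of the 192 recomputed counts of genes, 170 stayed within 1.5 times the reported ones, and of the 2400 recomputed smallest gaps of named genes 53 changed sign. TMM scaling moved the median gap over all genes in G&T from 0.15 to -0.04 and DESeq2 size factors to -0.04, so single small gaps in G&T are relative to that shift. The G2/M medians moved by less than 1.5 times under both. With TMM the ribosomal protein medians in G&T and NEB were -0.84 and -0.24, those of nuclear respiratory genes -1.20 and -0.010, those of mitochondrial messengers -0.59 and -0.052, and the S phase median in G&T was -0.17. DESeq2 size factors gave -0.87, -1.21, -0.60 and -0.13 for these lists in G&T.

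The counts followed the minimum level. At 1 CPM, 1484 genes were higher and 1104 lower, 283 and 116 by 1.5-fold. At 50 CPM they were 275 and 316, and 40 and 5. With no minimum they were 1790 and 1334, and 347 and 157. By 1.5-fold, a pseudocount of 5 CPM left 26 lower genes and DESeq2 size factors gave 62, group medians gave 190 higher genes, and 3 against 3 cells gave 234 higher and 85 lower. Without NEB D1 and E1, 68 genes were higher by 1.5-fold and the G2/M median in NEB was -0.84.

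Per ERCC read, 3441 genes were higher and 15 lower, 1483 and 2 by 1.5-fold, as the choice of cells on that scale makes likely. The medians became 0.15, 0.46 and 0.66 for ribosomal proteins in G&T, Takara and NEB, 0.59 and 0.87 for nuclear respiratory genes in Takara and NEB, and 0.34, 0.56 and 0.81 for mitochondrial messengers. The share higher in NEB of genes chosen by the other protocols was 79.5%, just below all genes. At least 1 gap changed sign there, with values of 0.38 for HERPUD2-AS1, 0.046 for YAE1, 0.33 for LAMTOR4, 0.64 for LAMTOR5, 0.32 for RPS27, 0.38 for RPS19, 0.26 for RPL13A, 0.44 for RPS29, 0.67 for EIF3J, 0.37 for UQCR11, 0.56 for COX5B, 0.60 for NDUFB3, 0.52 for UQCRH, 0.75 for MT-ATP8, 0.71 for MT-ND3, 0.80 for MT-CO3, 0.81 for MT-CO2, 0.27 for TFF3, 0.27 for GATA3, 0.23 for KRT18 and 0.39 for KRT8.

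Sign changes elsewhere were these, and the cause was not tested. With group medians they were 0.78 for HERPUD2-AS1, 0.049 for COMMD6 and 0.11 for UQCR11. With 4 against 4 cells they were 0.52 for CTBS and a share lower in NEB of 52.2%. With 3 against 3 cells they were 0.29 for GRAMD2A, 0.26 for CTBS, 0.52 for CEP290, 0.016 for RPS29, -0.055 for EIF1, 0.17 for EIF3J, 0.10 for COX5B, 0.24 for NDUFB3, 0.25 for UQCRH, 0.19 for TFF3 and 0.089 for the nuclear respiratory median in NEB. Ranking by nuclear reads gave 0.13 for KRT18 and 0.022 for KRT8, and putting back G&T F1 and NEB F2 gave 0.13 for EIF3J. Without NEB D1 and E1 they were -0.36 for FAM83D, -2.61 for ENSG00000187951, -1.63 for KNSTRN, -0.37 for CDC25C, -0.020 for MZT1, -0.16 for CCNA2, 0.27 for EIF3J and a share lower in NEB of 46.2%. Leaving out each cell in turn, the counts over all genes ran from 787 to 930 higher and 675 to 790 lower, and from 90 to 167 and 33 to 49 by 1.5-fold. Lower nuclear respiratory genes fell to 20 without NEB B1. Higher S phase genes rose to 20 without G&T D1 and fell to 9 without G&T A2. Gaps that changed sign ran from -1.83 to 0.397 for H2BC5, -1.27 to 0.369 for CTBS, -1.48 to 0.474 for HERPUD2-AS1, -1.27 to 2.35 for MARCHF9, -0.231 to 0.154 for LAMTOR5, -0.554 to 0.0293 for EIF3J, -0.805 to 0.0614 for UQCR11 and -0.644 to 0.0974 for TFF3.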

Other observations

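Cells that the quality thresholds removed took no part in the comparison. NEB F2, removed for a library of 584698 reads, had 15.8 gene reads per ERCC read, near the top of the NEB cells. Its G2/M genes summed to 46146 CPM and its cytosolic ribosomal proteins to 23387 CPM, below each of the 10 compared NEB cells. G&T F1, removed at 596867 reads, had a ratio of 43.5, within the RNA-poor range, with 3121 CPM of G2/M genes and 88269 CPM of ribosomal proteins. The other removed cells were shallow, rich in spike-ins or rich in mitochondrial reads: G&T C2 had 36.2% mitochondrial reads, a ratio of 13.4 and 904 CPM of G2/M genes, and NEB B2 had 28.4% ERCC reads and a ratio of 2.52. Takara C2, Takara F1 and NEB F1 had 91.3%, 96.7% and 99.7% ERCC reads.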
